A study of Mus musculus with 10 samples.

Results

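Actin is the protein of the thin filament and of the cortical and stress fibre cytoskeleton, and 4 of its isoform genes were followed here by name out of the 11228 genes listed in the expression table. They were the skeletal muscle α-actin Acta1, the cardiac α-actin Actc1, and the cytoplasmic actins Actb (β) and Actg1 (γ). They were chosen as members of a gene family, with earlier results of these data known. All 4 passed the minimum mean of 1 FPKM set for testing. Each was measured in 6 RNA-seq libraries of mouse myotubes differentiated in culture for 2 days, and its share of the summed FPKM of the 4 was computed per library. Charme, a muscle-specific long non-coding RNA, had been silenced in 2 libraries with the gapmer set called GAP-2/3 and in 2 with GAP-2, and the other 2 received the scrambled gapmer GAP-scr. Gapmers are antisense oligonucleotides that lead RNase H to a transcript. The name GAP-2/3 allows that this set contains GAP-2, and the 2 arms share their GAP-scr libraries, so they are not independent of each other. A second assay of the series, ChIRP-seq, recovered DNA with Charme through an even and an odd set of DNA probes, with input DNA and LacZ probes as controls. The libraries are described as biological replicates without saying that they came from separate cultures, so the spread behind each p-value is that of these libraries and may be technical.

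Myoblasts express mainly the cytoplasmic actins, which build the cortex, stress fibres and lamellipodia. When they fuse and differentiate, the sarcomeric α-actins are switched on. In developing and regenerating skeletal muscle the cardiac isoform Actc1 is expressed beside Acta1, and with maturation Acta1 takes over. Serum response factor (SRF) drives many actin genes through a promoter element known as the CArG box, and its cofactor Mkl1 is held out of the nucleus by monomeric actin. Actb is widely used as a reference gene in RT-PCR.

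The sequences before the start sites are shown because the sarcomeric actins moved together and Actg1 did not pass the test, while each of the 3 carries this element close to its start. They are the 250 bases upstream of the start on the minus strand, from the RefSeq promoter table of GRCm38.p6, with the exact CArG box in capitals. The window of Acta1 is chr8:123894776-123895025, that of Actc1 is chr2:114052876-114053125 and that of Actg1 is chr11:120348496-120348745.
Acta1: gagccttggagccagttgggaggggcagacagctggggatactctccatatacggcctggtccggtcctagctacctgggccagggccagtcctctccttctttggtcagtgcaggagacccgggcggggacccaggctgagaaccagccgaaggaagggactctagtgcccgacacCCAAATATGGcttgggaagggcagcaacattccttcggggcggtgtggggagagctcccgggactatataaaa
Actc1: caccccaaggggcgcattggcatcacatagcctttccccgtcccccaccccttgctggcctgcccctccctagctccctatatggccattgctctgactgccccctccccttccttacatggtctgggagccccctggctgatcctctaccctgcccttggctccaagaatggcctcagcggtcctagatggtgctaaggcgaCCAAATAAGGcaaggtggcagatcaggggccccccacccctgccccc
Actg1: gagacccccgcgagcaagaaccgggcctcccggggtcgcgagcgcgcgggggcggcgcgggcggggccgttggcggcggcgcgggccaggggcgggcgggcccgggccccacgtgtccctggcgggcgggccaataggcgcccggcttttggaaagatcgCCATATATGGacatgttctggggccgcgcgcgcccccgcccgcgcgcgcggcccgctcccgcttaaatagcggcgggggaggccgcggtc
Counted from the annotated RefSeq start, the CArG box lay at -73 to -64 in Acta1, at -47 to -38 in Actc1 and at -90 to -81 in Actg1. Such an exact match, which reads as the same pattern on both strands, was found in 481 of 32534 promoters of this length (1.48%). With at most 1 letter off, 6054 promoters held one (18.6%). Matches with 1 letter off also lay at -205 to -196 and -154 to -145 in Acta1. In Actc1 they lay at -175 to -166, -138 to -129 and -87 to -78, and the window of Actg1 held no such match. The smooth muscle α-actin Acta2 had no exact match in its window and 2 with 1 letter off. The window of Acta1 also held the letters TATAAA at -7 to -2. Where transcription begins relative to the annotated starts was not tested. No promoter sequence was used for Actb or Actg2. A match is a string of letters and not evidence of binding, and the exact element was present both in members that passed the test and in one that did not.

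Both sarcomeric actins fell by close to 1 on the log2 scale in each gapmer arm, whereas neither cytoplasmic actin passed the test in either arm. Acta1, the α-actin of adult skeletal muscle thin filaments, was at 2928 and 3215 FPKM in the GAP-2/3 libraries and at 2974 and 2834 FPKM in the GAP-2 libraries, against 5636 and 6323 FPKM in the GAP-scr libraries. No gapmer library reached the lower GAP-scr value. In order of level among all listed genes Acta1 stood at places 16 and 13 in GAP-2/3 and 15 and 18 in GAP-2, against places 2 and 1 in GAP-scr. FPKM is scaled to transcript length, so levels may be set side by side between genes. In RNA from whole cultures, fewer cells of a type and less RNA per cell cannot be told apart.

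The mean of Acta1 was 51.4% of the GAP-scr mean in GAP-2/3 and 48.6% in GAP-2. In limma with Benjamini-Hochberg adjustment over all 10993 genes tested, the log2 change was -0.96 ± 0.12 (SE) for GAP-2/3 against GAP-scr (adjusted p = 0.000199) and -1.04 ± 0.12 for GAP-2 against GAP-scr (adjusted p = 0.00029). Changes are on the log2(FPKM + 1) scale throughout, and the threshold is an adjusted p of 0.05. With both arms averaged, the change of Acta1 was -1.0, with a 95% interval of -1.23 to -0.77 (adjusted p = 6.53e-05). This was the 16th lowest of the 10993 changes.

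Actc1, the α-actin of the heart that forming skeletal fibres also use, was at 2054 and 1884 FPKM in GAP-2/3 and at 1938 and 2033 FPKM in GAP-2, against 3894 and 3415 FPKM in GAP-scr. As for Acta1, the gapmer libraries lay wholly below the controls. The means were 53.9% of the GAP-scr mean in GAP-2/3 and 54.3% in GAP-2. The log2 change was -0.89 ± 0.12 for GAP-2/3 against GAP-scr (limma, adjusted p = 0.000312) and -0.88 ± 0.12 for GAP-2 against GAP-scr (limma, adjusted p = 0.000885). With both arms averaged it was -0.88, with a 95% interval of -1.11 to -0.66 (limma, adjusted p = 0.000156), the 25th lowest of all genes tested.

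**Figure D1:**
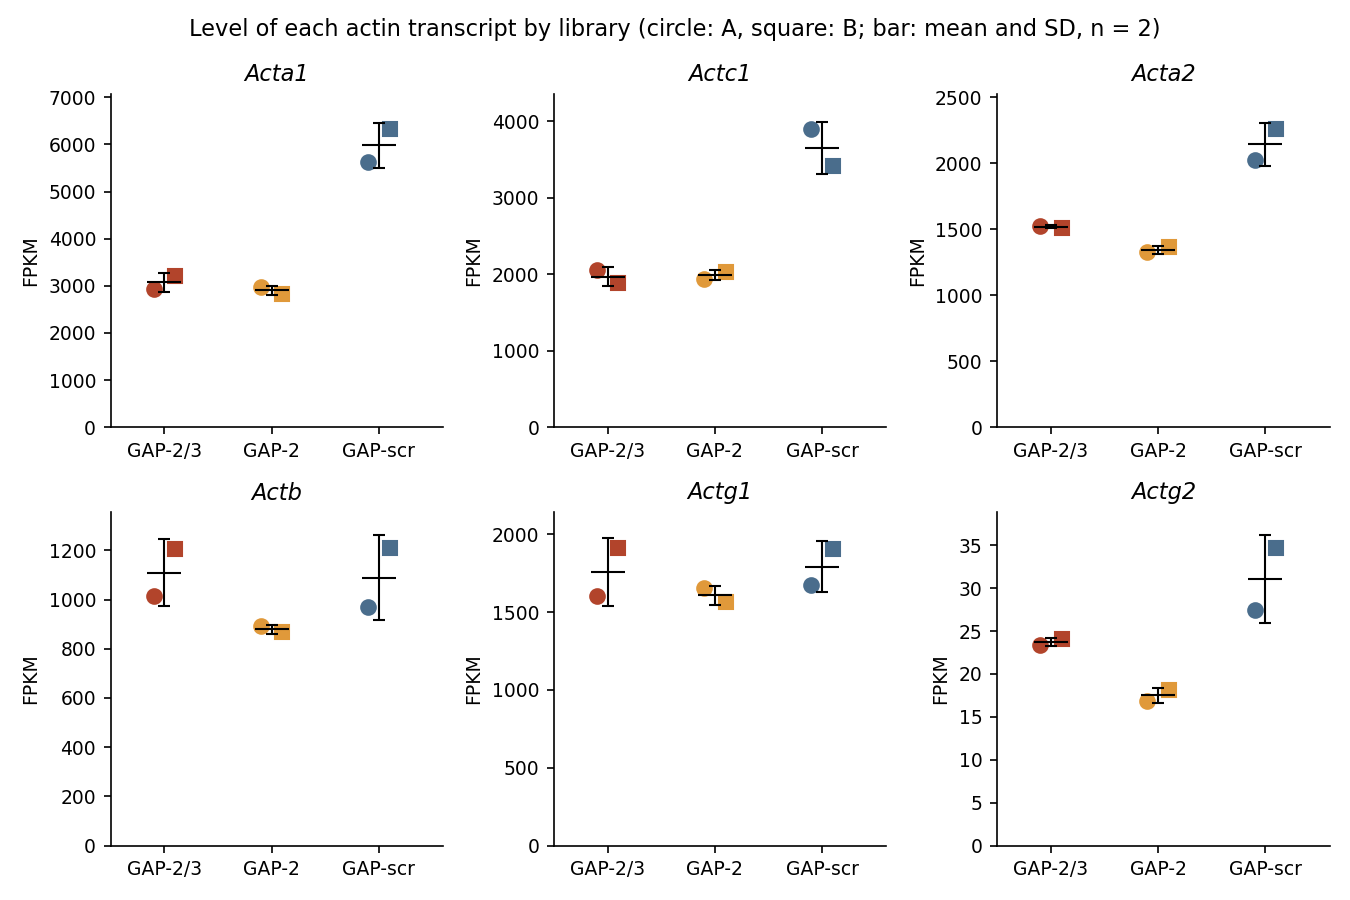
Level in FPKM of 6 actin transcripts (one panel each, linear axis from 0) in GAP-2/3, GAP-2 and GAP-scr libraries, with circles for replicate A, squares for replicate B and bars for mean and SD (n = 2). Acta1 averaged 3071 and 2904 FPKM in the gapmer groups and 5979 FPKM in GAP-scr, while the groups of Actb and Actg1 overlapped.

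Actb, the β-actin of cortex and leading edge, was at 1012 and 1206 FPKM in GAP-2/3 and at 890 and 867 FPKM in GAP-2, against 969 and 1210 FPKM in GAP-scr. The GAP-2/3 libraries fell inside the range of the controls, and both GAP-2 libraries lay below it. The log2 change was 0.03 ± 0.13 for GAP-2/3 against GAP-scr, with a 95% interval of -0.26 to 0.32 (limma, adjusted p = 0.877). For GAP-2 against GAP-scr it was -0.30 ± 0.13, with an interval of -0.59 to -0.01 (limma, adjusted p = 0.148). That comparison rests on 1 control library: without GAP-scr replicate A the change was -0.46 (adjusted p = 0.0149), and with both arms averaged it was then -0.30 (adjusted p = 0.0462), against -0.14 with all libraries (adjusted p = 0.378).

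Actg1, the γ-actin that accompanies Actb in the cortex, was at 1603 and 1913 FPKM in GAP-2/3 and at 1652 and 1566 FPKM in GAP-2, against 1674 and 1905 FPKM in GAP-scr. The GAP-2/3 libraries bracketed the controls. The log2 change was -0.03 ± 0.13 for GAP-2/3 against GAP-scr, with an interval of -0.30 to 0.25 (limma, adjusted p = 0.871), and -0.15 ± 0.13 for GAP-2 against GAP-scr, with an interval of -0.43 to 0.12 (limma, adjusted p = 0.43). A miss of the threshold does not show that the cytoplasmic actins stayed level. Their intervals with both arms averaged, -0.39 to 0.12 for Actb and -0.33 to 0.15 for Actg1, nevertheless did not reach the intervals of Acta1 and Actc1.

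Across the whole table a fall of a single gene was common. With both arms averaged, 9.57% of the genes tested passed as lower and 24.5% as higher. For GAP-2/3 against GAP-scr the shares were 11.3% lower and 28.0% higher, and for GAP-2 against GAP-scr 4.18% lower and 10.4% higher. Of the 4 actins, 2 passed as lower and 0 as higher in each of these comparisons. The median change of all genes was 0.10 with both arms averaged, 0.13 for GAP-2/3 and 0.07 for GAP-2, so relative to the median gene the falls were slightly larger than the values printed. Scaling the libraries to one median took that shift to 0.02 and turned the split to 1556 lower and 1618 higher genes, against 1052 and 2698 as deposited. On that scale 1789 genes were lower and 1928 higher for GAP-2/3 against GAP-scr, 648 lower and 708 higher for GAP-2 against GAP-scr, and 424 lower and 464 higher between the arms. The numbers called also depend on single libraries. Without GAP-scr replicate A, 2624 genes passed in GAP-2 against GAP-scr, without GAP-2 replicate B 504, and with all libraries 1604.

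The gapmer sets were also set against each other directly. For GAP-2/3 against GAP-2, 3.65% of genes passed as lower and 6.50% as higher, and 0 of the 4 actins did. The log2 change was 0.08 ± 0.12 for Acta1, with a 95% interval of -0.18 to 0.34 (limma, adjusted p = 0.717). For Actc1 it was -0.01 ± 0.12, with an interval of -0.27 to 0.25 (limma, adjusted p = 0.96). Equality of the arms is not shown by these intervals. Actg1 differed by 0.12 ± 0.13 (limma, adjusted p = 0.58). Actb was the member furthest from 0, at 0.33 ± 0.13 with an interval of 0.04 to 0.62 (unadjusted p = 0.0302, limma adjusted p = 0.142). With the same estimate it passed when either GAP-scr library was left out of the fit, without replicate A (adjusted p = 0.0315) or replicate B (adjusted p = 0.0315).

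**Figure D2:**
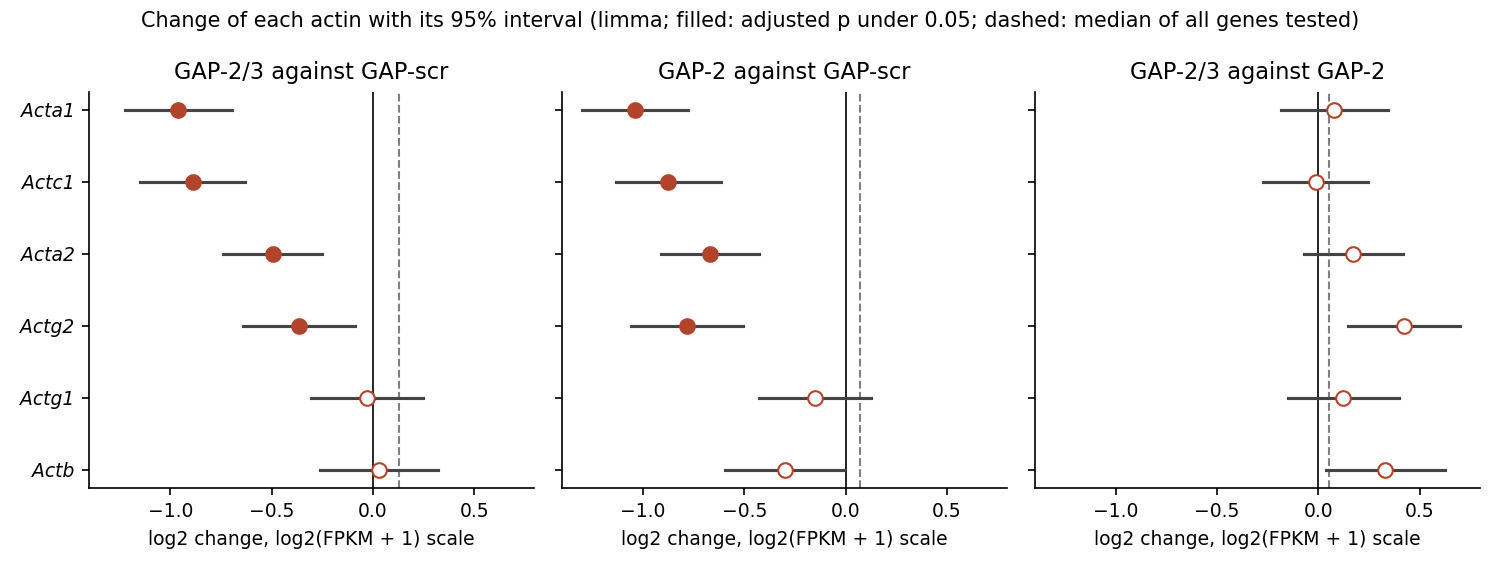
Change of 6 actins on the log2(FPKM + 1) scale in 3 comparisons, with points for the limma estimate, lines for its 95% interval, filled points for an adjusted p under 0.05 and a dashed line at the median of all genes tested. Acta1 and Actc1 lie between -0.88 and -1.04 against GAP-scr and near 0 between the arms, and the intervals of Actg1 include 0 in all 3 panels.

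Order of level was Acta1, Actc1, Actg1 and Actb, from high to low, in 5 of the 6 libraries. In GAP-2/3 replicate B, Actg1 (1913 FPKM) stood just above Actc1 (1884 FPKM). In GAP-2/3 these neighbours did not differ beyond their spread, with Actc1 at 1969 ± 120 FPKM and Actg1 at 1758 ± 219 FPKM (SD, n = 2). In GAP-2 they were apart, with Actc1 at 1986 ± 67.1 FPKM and Actg1 at 1609 ± 60.8 FPKM. In GAP-scr the gap was wide, at 3654 ± 339 FPKM for Actc1 and 1790 ± 163 FPKM for Actg1. Acta1 over Actc1 and Actg1 over Actb were separated in every group.

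Total actin, the summed FPKM of the 4 genes, was 7597 and 8218 in GAP-2/3 and 7455 and 7300 in GAP-2, against 12173 and 12853 in GAP-scr. The gapmer libraries averaged 61.1% of the controls. Without the ribosomal precursor Rn45s, which reached 4090 FPKM in GAP-2 replicate A and 3387 FPKM in GAP-scr replicate A but at most 176 FPKM in the other 4 libraries, the 4 actins made up 1.26% and 1.39% of all listed FPKM in GAP-2/3 and 1.31% and 1.25% in GAP-2. The same share in GAP-scr was 2.20% and 2.23%.

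The sarcomeric part of this total was smaller, and the cytoplasmic part larger, in every gapmer library than in either control. Acta1 held 38.5% and 39.1% of it in GAP-2/3 and 39.9% and 38.8% in GAP-2, against 46.3% and 49.2% in GAP-scr. Actc1 held 27.0% and 22.9% in GAP-2/3 and 26.0% and 27.9% in GAP-2, against 32.0% and 26.6% in GAP-scr. The share of Acta1 was therefore lower in every gapmer library than in either control, while that of Actc1 overlapped. Actb held 13.3% and 14.7% in GAP-2/3 and 11.9% and 11.9% in GAP-2, against 7.96% and 9.42% in GAP-scr. Actg1 held 21.1% and 23.3% in GAP-2/3 and 22.2% and 21.5% in GAP-2, against 13.8% and 14.8% in GAP-scr. Both cytoplasmic shares were higher in every gapmer library, although neither transcript passed the test for a higher level. A share goes up when the remainder of the total goes down.

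Together Acta1 and Actc1 held 63.8 ± 2.50% of total actin in GAP-2/3 and 66.3 ± 0.551% in GAP-2, against 77.0 ± 1.79% in GAP-scr (SD, n = 2 each). On the log2 scale, sarcomeric over cytoplasmic actin was 0.93 and 0.71 in GAP-2/3 and 0.95 and 1.0 in GAP-2, against 1.85 and 1.64 in GAP-scr, a difference of -0.85 between the 4 gapmer libraries and the 2 controls. A ratio within a library does not depend on how the library was scaled. Two-sided exact permutation tests of 4 libraries against 2 have 15 regroupings and cannot go below p = 0.133, so none can pass 0.05. That smallest exact p was reached by total actin, the sarcomeric share, the ratio of sarcomeric to cytoplasmic actin and the shares of Acta1, Actb and Actg1 (p = 0.133, adjusted p = 0.2 over the 9 quantities tested). The share of Actc1 gave an exact p of 0.4 (adjusted p = 0.45).

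**Figure D3:**
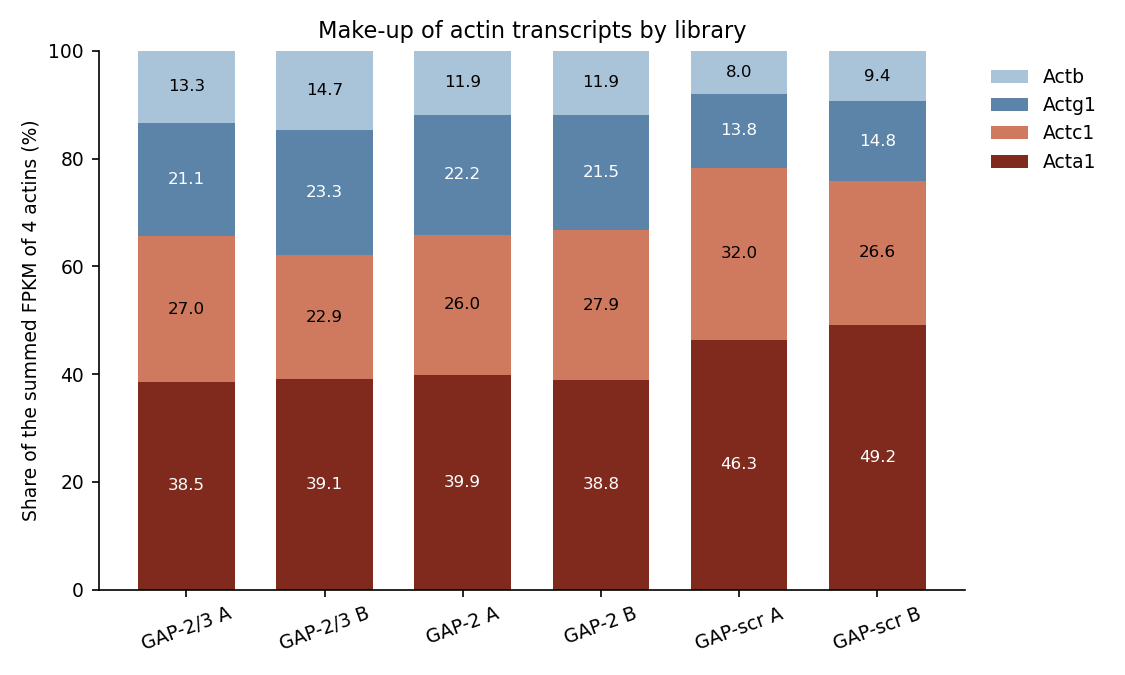
Share of the summed FPKM of Acta1, Actc1, Actg1 and Actb, in percent, with one stacked bar per library. The sarcomeric actins (red tones) fill 62.0% to 66.7% of the gapmer bars and 75.8% and 78.3% of the GAP-scr bars.

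Within each class, the balance between its 2 members did not separate the gapmer libraries from the controls. The log2 of Acta1 over Actc1 was 0.51 and 0.77 in GAP-2/3 and 0.62 and 0.48 in GAP-2, against 0.53 and 0.89 in GAP-scr (difference -0.12, exact permutation p = 0.4, adjusted p = 0.45). The log2 of Actb over Actg1 was -0.66 and -0.67 in GAP-2/3 and -0.89 and -0.85 in GAP-2, against -0.79 and -0.65 in GAP-scr (difference -0.05, exact permutation p = 0.533, adjusted p = 0.533). Both GAP-2 values lay below the other 4 libraries, as in the level of Actb, while the GAP-2/3 values lay within the range of GAP-scr.

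Acta1 and Actc1 leaned against each other between replicates. From replicate A to B of GAP-2/3, Acta1 differed by 287 FPKM and Actc1 by -170 FPKM. In GAP-2 the differences were -140 and 94.9 FPKM, and in GAP-scr 688 and -480 FPKM. In all 3 groups the replicate with more Acta1 thus had less Actc1. Their sum varied less than either, with an SD of 1.64% of its mean in GAP-2/3, 0.649% in GAP-2 and 1.53% in GAP-scr, where the SD of Acta1 alone was 6.61%, 3.40% and 8.13% in the same groups. The actins are close to identical as proteins and related, but less alike, in coding sequence, and actin has processed pseudogenes in the genome. Some reads may therefore match more than 1 of these genes, and the sources used here do not say how such reads were shared out. Whether read assignment moved with these values was not tested. Actb and Actg1 differed between replicates in the same direction in each group, by 194 and 310 FPKM in GAP-2/3, by -23.6 and -86.0 FPKM in GAP-2 and by 242 and 231 FPKM in GAP-scr.

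The sums were therefore fitted as single genes, an addition made after these values were seen. Acta1 plus Actc1 was at 4982 and 5099 FPKM in GAP-2/3 and at 4912 and 4868 FPKM in GAP-2, against 9530 and 9738 FPKM in GAP-scr. The log2 change of this sum was -0.93 ± 0.11 for GAP-2/3 against GAP-scr (limma, adjusted p = 0.000155), -0.98 ± 0.11 for GAP-2 against GAP-scr (limma, adjusted p = 0.000264) and 0.04 ± 0.11 for GAP-2/3 against GAP-2 (limma, adjusted p = 0.84). The sum fell by about as much as either gene. It is less exposed to how reads were divided between these 2 genes but not free of it, since FPKM is scaled to transcript length. Reads shared with other actins or with pseudogenes can still enter or leave the sum. Actb plus Actg1 changed by -0.11 ± 0.11 with both arms averaged, with a 95% interval of -0.35 to 0.14 (limma, adjusted p = 0.486).

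The smooth muscle actins, which differ from the sarcomeric ones by few residues, were lower as well. Acta2, the α-actin of vascular smooth muscle that also appears transiently in young myotubes, was at 1526 and 1510 FPKM in GAP-2/3 and at 1325 and 1368 FPKM in GAP-2, against 2028 and 2258 FPKM in GAP-scr. It stood below Actg1 in all 4 gapmer libraries and above it in both controls. Its log2 change was -0.50 ± 0.11 for GAP-2/3 against GAP-scr (limma, adjusted p = 0.00557), and without GAP-2/3 replicate A this comparison no longer passed (adjusted p = 0.0581). For GAP-2 against GAP-scr it was -0.67 ± 0.11 (limma, adjusted p = 0.00308).

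Actg2, the γ-actin of visceral smooth muscle, was low, at 23.4 and 24.1 FPKM in GAP-2/3 and 16.9 and 18.1 FPKM in GAP-2, against 27.5 and 34.7 FPKM in GAP-scr. Its log2 change was -0.36 ± 0.13 for GAP-2/3 against GAP-scr (limma, adjusted p = 0.0391) and -0.79 ± 0.13 for GAP-2 against GAP-scr (limma, adjusted p = 0.00252). The GAP-2/3 result was lost when any 1 of 5 libraries was left out, at adjusted p = 0.177 without replicate A and 0.113 without replicate B of GAP-2/3, at 0.0614 without replicate A and 0.0616 without replicate B of GAP-2, and at 0.206 when GAP-scr replicate B was dropped. With Acta2 and Actg2 in the total, Acta2 held 16.7% and 15.5% of actin FPKM in GAP-2/3 and 15.1% and 15.7% in GAP-2, against 14.3% and 14.9% in GAP-scr.

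The cultures carried the genes that define skeletal myotubes, with all 9 marker genes listed. Their summed level was 4944 to 4982 FPKM in GAP-2/3 and 4216 to 4603 FPKM in GAP-2, against 6281 to 6401 FPKM in GAP-scr. With both arms averaged 6 of 9 passed as lower (7 at one median, 8 at one sum and 6 by quantile normalization), where 9.57% of all genes did. Of these, Myog lost its call on dropping any library but GAP-scr replicate B (adjusted p = 0.0588 to 0.135), and Tnnt3 on dropping GAP-2/3 replicate B (adjusted p = 0.0593) or GAP-2 replicate A (adjusted p = 0.0732). In GAP-2/3 alone 4 of 9 were lower (6 at one median) and in GAP-2 alone 6 of 9, where 11.3% and 4.18% of all genes were. Myog was at -0.11 in GAP-2/3 (limma, adjusted p = 0.498) and exceeded its GAP-2 level there by 0.43 (limma, adjusted p = 0.0442). Myh8, at 1.65 to 4.90 FPKM, went the other way, at -0.80 in GAP-2/3 (limma, adjusted p = 0.0034) and 0.03 in GAP-2 (limma, adjusted p = 0.914). For Myh8, GAP-2/3 lay below GAP-2 by -0.83 (limma, adjusted p = 0.00918). Between the arms 1 of the 9 was thus lower and 1 higher, where 3.65% and 6.50% of all genes were. The median of the 9 was -0.38 with both arms averaged. The largest falls were in Ckm, the muscle creatine kinase, at -0.77 ± 0.10 (limma, adjusted p = 0.000256), and Mymk, the fusion protein listed as Tmem8c, at -0.79 ± 0.10 (limma, adjusted p = 0.000213). Smooth muscle markers, of which 6 of 7 were listed and Acta2 formed the bulk, summed to 1626 to 1646 FPKM in GAP-2/3 and 1418 to 1461 FPKM in GAP-2, against 2175 to 2424 FPKM in GAP-scr. With both arms averaged 6 of 6 passed as lower, against the same 9.57% of all genes. Tagln did not on dropping GAP-scr replicate B (adjusted p = 0.0719). Cnn1 (adjusted p = 0.0516 to 0.246) and Lmod1 (adjusted p = 0.0704 to 0.255) did not on dropping either GAP-2/3 library or GAP-scr replicate A, nor Cnn1 on dropping GAP-2 replicate A or Lmod1 on dropping GAP-2 replicate B. Each arm alone had 4 of the 6 lower. In GAP-2/3, Tagln (-0.24, limma, adjusted p = 0.231) and Cnn1 (-0.38, limma, adjusted p = 0.0756) did not pass. In GAP-2, Cnn1 (-0.51, limma, adjusted p = 0.0533) and Lmod1 (-0.32, limma, adjusted p = 0.234) did not. Myh11, which defines mature smooth muscle, was not among the listed genes.

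Markers of other cells were mixed. The 4 listed markers of proliferating myoblasts summed to 43.6 to 49.9 FPKM in GAP-2/3 and 34.3 to 37.6 FPKM in GAP-2, against 24.7 to 26.9 FPKM in GAP-scr. With both arms averaged 1 of the 4 passed as higher and 0 as lower, where 24.5% of all genes were higher and 9.57% lower. The higher marker was Myf5, a determination factor of myoblasts, the largest of the 4 in every library, which rose by 0.98 ± 0.11 (limma, adjusted p = 0.000153). With both arms averaged the proliferation genes did not pass, with Mki67 at -0.03 (adjusted p = 0.867), Ccna2 at 0.0058 (adjusted p = 0.973) and Top2a at 0.24 (adjusted p = 0.139). In GAP-2 alone they were at -0.26, -0.11 and -0.02, and in GAP-2/3 alone at 0.21, 0.12 and 0.49. There Top2a passed (limma, adjusted p = 0.0156). GAP-2/3 exceeded GAP-2 in Mki67 by 0.47 (limma, adjusted p = 0.0324) and in Top2a by 0.50 (limma, adjusted p = 0.0376). After scaling to one median 0 of the 4 myoblast markers passed between the arms. The 5 listed fibroblast markers of 7 summed to 3740 to 4168 FPKM in GAP-2/3 and 3263 to 3371 FPKM in GAP-2, against 2877 to 3127 FPKM in GAP-scr. Vim, Dcn and Pdgfra were higher and Col1a1 lower with both arms averaged (3 higher and 1 lower of 5), against the same shares of all genes. Between the arms, GAP-2/3 exceeded GAP-2 in Vim by 0.70, in Dcn by 0.79 and in Pdgfra by 0.58 (limma, adjusted p = 0.0051, 0.00554 and 0.0144 in this order). GAP-2/3 lay below GAP-2 in Col1a1 by -0.75 (limma, adjusted p = 0.00468) and in Col1a2 by -0.48 (limma, adjusted p = 0.0351). Col1a2 was also lower in GAP-2/3 against GAP-scr (-0.46, limma, adjusted p = 0.0153). Of 7 cardiomyocyte markers 2 were listed, Tnni3 and Gja5, at a sum of 19.5 to 22.7 FPKM in GAP-2/3 and 4.03 to 8.68 FPKM in GAP-2, against 4.74 to 17.8 FPKM in GAP-scr. With both arms averaged neither passed. In GAP-2/3 alone Tnni3, at 1.78 and 2.67 FPKM, was higher (0.55, limma, adjusted p = 0.0137). GAP-2/3 exceeded GAP-2 in Tnni3 by 0.67 (limma, adjusted p = 0.0159) and in Gja5 by 1.76 (limma, adjusted p = 0.0429), where 6.50% of all genes were higher. After scaling to one median 1 of the 2 passed between the arms. The part of these cell markers in the actin changes was not tested.

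Genes whose profile over the 6 libraries lay closest to each actin were found by the root mean square difference of centred log2(FPKM + 1) values among 6475 other genes that averaged 10 FPKM or more. For Acta1 these were Chrng, which encodes the embryonic γ subunit of the muscle acetylcholine receptor, at a distance of 0.0835, then Rin3 (0.10), the calcium channel subunits Cacna1s (0.111) and Cacnb1 (0.121), and Smox (0.132). Chrng was at 214 and 219 FPKM in GAP-2/3 and at 214 and 216 FPKM in GAP-2, against 393 and 401 FPKM in GAP-scr. For Actc1 they were R3hdml (0.0592), Chrng (0.0812), Ckm (0.0863), Prss57 (0.101) and Dpep1 (0.102). Each sarcomeric actin was near the other without being its closest gene: at a distance of 0.149, Actc1 was in place 12 from Acta1, and Acta1 in place 22 from Actc1.

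Closest to Actb were Ltbp2 (0.0406), Med16 (0.0425), Pccb (0.0426), Coro1c (0.0466) and Sppl2b (0.0622), of which Coro1c encodes a coronin that binds filamentous actin. Closest to Actg1 were Fam20a (0.0188), Ankrd13b (0.0253), Ppp2r1a (0.0289), Nbl1 (0.0357) and Map3k3 (0.0372). The profiles of the cytoplasmic actins varied little, and these distances are correspondingly small. Actb and Actg1 were 0.0966 apart, with Actg1 in place 70 from Actb and Actb in place 387 from Actg1. All genes of a library share its depth and scaling, and there are 6 libraries, so likeness of profile is a description only.

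The genes around actin in the cell were counted next, list by list, with both arms averaged, to be read against the 9.57% lower and 24.5% higher of all genes and their median of 0.10. Among 11 tested genes of other actins and actin-related proteins, 2 were lower, Acta2 and Actg2, and 2 were higher, with a median of 0.12 (3 lower and 2 higher after scaling to one median). The higher ones were Actr2, a core subunit of the Arp2/3 complex (0.52 ± 0.10, limma, adjusted p = 0.00254), and Actr6, a subunit of a chromatin remodeller (0.56 ± 0.12, limma, adjusted p = 0.00576). Actr6 exceeded its GAP-2 level in GAP-2/3 by 0.56 ± 0.14 (limma, adjusted p = 0.0278), and GAP-2 alone did not pass (0.28, adjusted p = 0.194). No conventional actin was among the higher genes.

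Of SRF and its cofactors 5 were tested, 1 lower and 1 higher, with a median of -0.09 (2 lower and 1 higher after scaling to one median, 2 and 0 by quantile normalization). Mkl1, the cofactor that senses monomeric actin, was at 12.5 and 14.7 FPKM in GAP-2/3 and at 18.2 and 16.6 FPKM in GAP-2, against 22.6 and 21.6 FPKM in GAP-scr, a change of -0.50 ± 0.10 (limma, adjusted p = 0.00469). All gapmer values lay below the controls, and GAP-2 alone did not pass (-0.33, adjusted p = 0.0881). Srf itself changed by -0.24 ± 0.10 (limma, adjusted p = 0.0882), and passed after scaling to one median (-0.33, adjusted p = 0.0354), by quantile normalization (-0.32, adjusted p = 0.038) and without GAP-scr replicate A (-0.34, adjusted p = 0.0323). Scai, which restrains Mkl1 activity, was the higher gene (0.52 ± 0.14, limma, adjusted p = 0.0163), but not without GAP-2/3 replicate A (adjusted p = 0.0803), without GAP-scr replicate B (0.31, adjusted p = 0.131) or after quantile normalization (adjusted p = 0.0799).

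Of 21 genes for monomer binding and filament turnover, 3 were lower and 5 higher, with a median of 0.10 (4 lower and 2 higher after scaling to one median). Pfn2, a profilin that delivers actin monomers to growing filaments, was at 33.0 and 30.3 FPKM in GAP-2/3 and at 44.5 and 43.5 FPKM in GAP-2, against 13.6 and 14.3 FPKM in GAP-scr. All 4 gapmer values exceeded both controls, and those of GAP-2 exceeded those of GAP-2/3. It rose by 1.36 ± 0.09 (limma, adjusted p = 2.74e-06), and GAP-2/3 lay below GAP-2 by -0.46 ± 0.11 (limma, adjusted p = 0.02). Cap2, a cyclase-associated protein of striated muscle that recycles monomers, fell by 0.75 ± 0.10 (limma, adjusted p = 0.000401), and Cotl1, a coactosin that binds filaments, fell by 0.74 ± 0.15 (limma, adjusted p = 0.0042), or by 0.42 without GAP-scr replicate B (adjusted p = 0.022). Gmfb, which takes apart Arp2/3 branches, rose by 0.60 ± 0.11 (limma, adjusted p = 0.0022).

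Of 28 genes of the Arp2/3 complex, its activators, formins and other nucleators, 6 were lower and 4 higher, with a median of 0.07. Cobl, a nucleator, fell by 0.57 ± 0.11 (limma, adjusted p = 0.00342), and Arpc4, an Arp2/3 subunit, by 0.45 ± 0.10 (limma, adjusted p = 0.00668). Actr2 of the same complex was among the higher genes. The formin Fmnl2 rose by 0.41 ± 0.10 (limma, adjusted p = 0.00951), with GAP-2/3 at 0.17 ± 0.11 (adjusted p = 0.245) and GAP-2 at 0.65 ± 0.11 (adjusted p = 0.00425) against GAP-scr. Directly compared, GAP-2/3 lay below GAP-2 by -0.47 ± 0.11 (limma, adjusted p = 0.0238).

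Of 9 tested genes for filament capping, 1 was lower and 4 were higher, with a median of 0.27 (1 lower and 2 higher after scaling to one median). Eps8, which caps barbed ends, was at 18.9 and 19.3 FPKM in GAP-2/3 and at 9.15 and 10.6 FPKM in GAP-2, against 5.79 and 7.39 FPKM in GAP-scr. It rose by 0.97 ± 0.12 (limma, adjusted p = 0.000182), and GAP-2/3 exceeded GAP-2 by 0.89 ± 0.13 (limma, adjusted p = 0.0018). Tmod1, which caps the pointed end of the sarcomeric thin filament, changed by -0.68 ± 0.16 (limma, adjusted p = 0.00858) and lost the call on dropping GAP-scr replicate A (-0.33, adjusted p = 0.0511) or GAP-2/3 replicate A (adjusted p = 0.0607), while without GAP-scr replicate B it was at -1.03. Tmod3, its relative outside the sarcomere, changed by 0.49 ± 0.12 (limma, adjusted p = 0.00993) and did not pass without GAP-2/3 replicate A (adjusted p = 0.0567) or GAP-scr replicate A (adjusted p = 0.0553).

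Filament cross-linking was the list with the lowest median, -0.23, with 6 of 16 genes lower and 1 higher. Actn2, the α-actinin that anchors thin filaments in the Z-disc, was at 5.10 and 5.44 FPKM in GAP-2/3 and at 9.69 and 8.51 FPKM in GAP-2, against 20.1 and 15.6 FPKM in GAP-scr. The 3 groups did not overlap. It fell by 1.23 ± 0.12 (limma, adjusted p = 3.68e-05), and GAP-2/3 lay below GAP-2 by -0.69 ± 0.14 (limma, adjusted p = 0.0102), a difference between the arms that neither sarcomeric actin showed at the threshold. Flnc, the muscle filamin, fell by 0.84 ± 0.11 (limma, adjusted p = 0.000233). Palld, a scaffold of actin bundles, fell by 0.69 ± 0.11 (limma, adjusted p = 0.000938). Actn3, the α-actinin of fast fibres, fell by 0.55 ± 0.09 (limma, adjusted p = 0.00135).

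**Figure D4:**
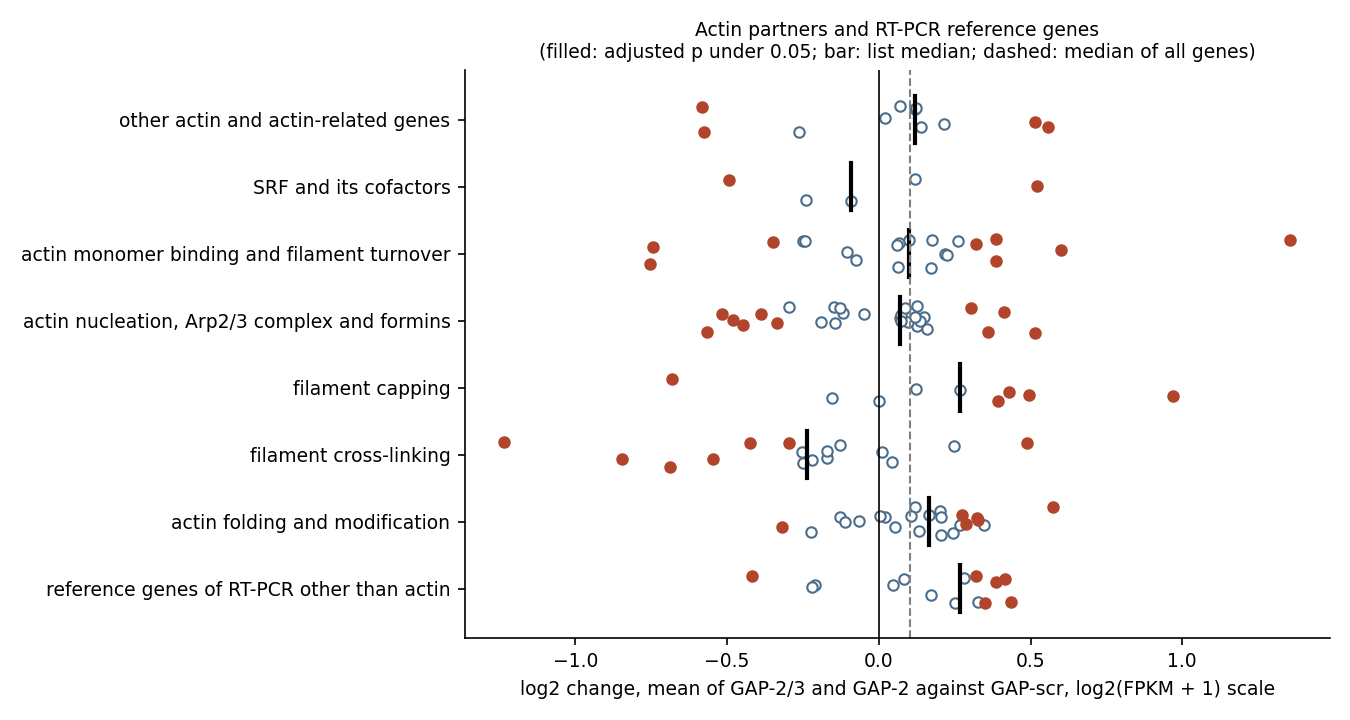
Change of each tested gene of 8 lists on the log2(FPKM + 1) scale, GAP-2/3 and GAP-2 averaged against GAP-scr, with filled points for an adjusted p under 0.05, a bar for the list median and a dashed line for the median of all genes. The cross-linking list has its median at -0.23 and capping at 0.27, and the highest single point is Pfn2 at 1.36.

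Of 23 genes for actin folding and modification, from the chaperonin and prefoldin subunits to the enzymes that modify actin, 1 was lower and 5 were higher, with a median of 0.17. For GAP-2/3 alone 9 were higher and 0 lower, where 28.0% of all genes were higher and 11.3% lower. For GAP-2 alone the counts were 0 and 0, where 10.4% of all genes were higher and 4.18% lower. Vbp1, a prefoldin subunit, changed by 0.57 ± 0.15 (limma, adjusted p = 0.0117), but did not pass without GAP-2/3 replicate A (adjusted p = 0.0743) or GAP-scr replicate B (0.26, adjusted p = 0.089), and was at 0.88 without GAP-scr replicate A. Cct4, a chaperonin subunit, changed by 0.33 ± 0.09 (limma, adjusted p = 0.0205) and did not pass after scaling to one median (adjusted p = 0.107) or quantile normalization (adjusted p = 0.0687), nor without GAP-2/3 replicate A (adjusted p = 0.075) or GAP-2 replicate B (adjusted p = 0.104). After scaling to one median 1 gene of this list was higher and 1 lower, both with the arms averaged and for GAP-2/3 alone.

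Since Actb serves as a reference gene, 14 other reference genes of RT-PCR were set beside it. With both arms averaged 1 was lower and 5 were higher, with a median of 0.27, and after scaling to one median 1 was lower and 2 were higher, with a median of 0.17. B2m, the light chain of MHC class I, was at 384 and 343 FPKM in GAP-2/3 and at 365 and 372 FPKM in GAP-2, against 274 and 274 FPKM in GAP-scr, a change of 0.42 ± 0.09 (limma, adjusted p = 0.00606). Ppia, cyclophilin A, changed by 0.35 ± 0.10 (limma, adjusted p = 0.0178), and Ywhaz, a 14-3-3 protein, by 0.32 ± 0.09 (limma, adjusted p = 0.0174). Neither passed after scaling to one median (Ppia adjusted p = 0.0939, Ywhaz adjusted p = 0.0841), without GAP-2/3 replicate A (Ppia adjusted p = 0.0726, Ywhaz adjusted p = 0.0536) or without GAP-2 replicate B (Ppia adjusted p = 0.0977, Ywhaz adjusted p = 0.0996). Ppia did not pass without GAP-2 replicate A either (adjusted p = 0.0653).

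The authors' merged ChIRP list holds 798 peaks, and none overlapped one of the 4 actin genes. The nearest peak was 143 kb from Actg1, 511 kb from Actb, 524 kb from Acta1 and 1808 kb from Actc1. The gene spans are chr11:120345687-120348495 for Actg1, chr5:142903115-142907976 for Actb, chr8:123891758-123894775 for Acta1 and chr2:114047282-114052875 for Actc1, from RefSeq in GRCm38.p6. The peak positions were read as GRCm38, since a peak on chromosome X lies beyond its end in mm9, the build named in the submitters' notes, and the distances hold only under that reading. One merged list cannot show a difference between probe sets, and a distance says nothing of contact in the nucleus.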

How the data were processed

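Polyadenylated RNA was made into stranded TruSeq libraries, per the labels' protocols. Per the submitters' processing notes, which give no roles or versions, CASAVA, FastQC, Trimmomatic, cutadapt, Bowtie2, TopHat2, Cufflinks, Cuffdiff, MACS and bedtools were used with mm9. The authors deposited one FPKM column per library for 11228 genes, so counts and depth are unknown, and one merged peak list with a score, deposited without a header, whose positions alone were used. Charme is not analysed here.

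Genes averaging under 1 FPKM over the libraries were left out, and log2(FPKM + 1) was taken for the other 10993. The 3 groups entered one fit in limma 3.58.1 (R 4.3.3) with an intensity trend, with Benjamini-Hochberg adjustment over these genes. Shares and ratios were tested by exact permutation in scipy 1.17.1 (Python 3.11.15). On simulated data the limma step recovered 88% of the genes given a log2 change of 1 and 31% at 0.5, with 7 unchanged genes called of 10993, for both arms averaged. Far fewer genes were changed in that simulation than the 3750 called here, so these rates need not hold for these data.

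Named genes were the 4 actins, Acta2 and Actg2, the 5 genes nearest in profile to each of the 4, up to 4 members per list with the smallest p for both arms averaged, the markers, and Rn45s. The members and lists were chosen with earlier results of these data known. Alternatives were another pseudocount, filter, threshold, scaling or design, the replicate letter as a block, and each library left out.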

Additional observations from a re-analysis of the deposited data

How the results depend on the processing

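The log2 changes of Acta1 and Actc1 against GAP-scr kept their sign and passed the threshold under every alternative run (17 for each arm, 16 for both arms averaged). Not all of these could have changed the result. The looser threshold cannot remove a call, and the other pseudocount, the filters, the fit without an intensity trend and the replicate block moved these estimates little or not at all. With both arms averaged Acta1 ranged from -1.10 to -0.92 and Actc1 from -0.98 to -0.77. Actb passed for GAP-2/3 against GAP-2 with only the compared libraries (0.33, adjusted p = 0.0311) and for GAP-2 against GAP-scr without both libraries highest in Rn45s (-0.48, adjusted p = 0.0231). Leaving out one library moved Actb between -0.30 and 0.025 with both arms averaged, between -0.46 and -0.14 in GAP-2 against GAP-scr, and from 0.20 to 0.46 between the arms. The share of Acta1, gapmer minus GAP-scr, ranged from -10.1 to -7.20 percentage points, that of Actc1 from -6.03 to -0.61 points and the log2 of Actb over Actg1 from -0.11 to 0.021. As percent of all listed FPKM without Rn45s, the differences were -0.548 for Acta1, -0.311 for Actc1, -0.0232 for Actb, -0.0295 for Actg1 and -0.859 for both sarcomeric actins. With Acta2 and Actg2 in the total, the share of Actg1 differed by 6.31 points. The difference in total actin was -5281 FPKM at one sum and -5610 FPKM at one median, against -4870 FPKM as deposited. The cause of these moves was not tested.

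With only the compared libraries 937 genes passed in GAP-2 against GAP-scr and 2055 between the arms, and at a threshold of 0.1 the numbers were 2567 and 1781. Leaving out one library gave 504 to 2624 and 195 to 2052 for these comparisons, 1538 to 4481 for GAP-2/3 against GAP-scr and 2080 to 3948 with both arms averaged. The cardiomyocyte marker Gja5 passed in opposite directions without GAP-scr replicate B (1.27) and without both libraries highest in Rn45s (-0.43).

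With the replicate letter as a block, Acta1 changed by -1.0 with both arms averaged, and no call of the 4 actins changed. Deviations of libraries with the same letter correlated at -0.18, -0.13 and 0.36 between pairs of groups, so the letters are not shown to pair the libraries. Depth is unknown, and 2 libraries per group limit all of these values.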
